A study of Homo sapiens with 24 samples.

Results

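The genes described here are 40 listed targets and partners of ATF4, the transcription factor at the centre of the amino acid and endoplasmic reticulum (ER) stress response. They were chosen by symbol, and a gene counted as measured where at least 1 of its array probes was detected at p under 0.05 on 3 or more of 24 arrays, with the brightest such probe standing for the gene. Of the 40 genes, 36 were measured, among 13699 genes tested in all. GPT2 and HERPUD1 had no annotated probe, the CHAC1 probe was detected on 2 arrays, and the ERN1 probe on 0 arrays. The series measured total RNA on Illumina bead arrays in 2 human cancer cell lines given 2 µM vemurafenib, an inhibitor of mutant BRAF kinase. SW1736, derived from a thyroid carcinoma, and SKMEL28, derived from a melanoma, both carried the BRAFV600E mutation according to the labels. In each line the groups were untreated cells (0 h) and cells treated for 1, 6 or 48 h, with 3 arrays in each of the 8 groups. Cells of both lines grew in RPMI medium with fetal bovine serum and glutamine. The only untreated cells were those at 0 h, so time under drug and time in culture cannot be told apart. The labels do not say whether the 3 arrays of a group came from separate cultures, so p-values measure the spread between these arrays, which may be technical. Each line stands for 1 cell line only, not for melanoma or thyroid carcinoma. The series' design text writes the thyroid line as SW1726, and the sample labels' SW1736 is used here.

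In the integrated stress response, kinases that sense amino acid shortage, misfolded protein in the ER, viral RNA or haem deficiency phosphorylate the initiation factor eIF2α. General translation then drops while translation of the ATF4 messenger RNA increases, so the amount of ATF4 protein need not follow the amount of its RNA, and only RNA was measured here. ATF4 binds DNA with C/EBP-family partners and switches on amino acid synthesis enzymes, amino acid transporters, transfer RNA handling and feedback brakes such as TRIB3 and the phosphatase subunit PPP1R15A. XBP1, SEL1L and EDEM1 belong to the neighbouring ER arm, in which the sensor IRE1 and its product XBP1 raise ER folding and degradation capacity.

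Promoter sequence was read for the listed genes because members of the set moved together in SW1736 cells. RefSeq promoters (GRCh38.p14, 250 bases before to 50 bases after the start) were matched by symbol for 33 of the listed genes, 51 promoters in all. The core of the C/EBP-ATF composite element, TGATGNAA, was searched on both strands. It lay in 9 of the 51 promoters, against 3.62% of 35116 promoters of the same length. The ER stress response element, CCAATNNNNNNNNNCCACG, lay in 1 of the 51, the XBP1 promoter, against 0.0769% of all promoters. The motifs share no letters in these promoters, and a match is a description of the letters, not a measured binding site.

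The 250 bases before the start of ASNS and of XBP1 are shown for the amino acid arm and the ER arm, with the motif in capitals. The ASNS sequence is the minus strand of chr7:97872409-97872658 and the XBP1 sequence the minus strand of chr22:28800570-28800819. The ASNS motif begins 68 bases before the start, and these letters are known as the nutrient-sensing response element of that gene. The XBP1 motif begins 52 bases before the start.
ASNS: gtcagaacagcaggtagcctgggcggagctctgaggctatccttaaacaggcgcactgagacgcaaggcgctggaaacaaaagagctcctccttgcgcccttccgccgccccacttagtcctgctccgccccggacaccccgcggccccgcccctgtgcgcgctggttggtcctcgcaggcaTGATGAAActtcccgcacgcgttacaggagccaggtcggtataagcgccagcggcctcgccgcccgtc
XBP1: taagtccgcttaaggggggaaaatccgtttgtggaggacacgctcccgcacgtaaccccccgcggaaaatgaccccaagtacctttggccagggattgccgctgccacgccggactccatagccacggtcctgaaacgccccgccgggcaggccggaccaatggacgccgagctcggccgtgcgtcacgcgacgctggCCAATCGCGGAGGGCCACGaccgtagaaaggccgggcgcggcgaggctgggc

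The other 6 measured genes held the C/EBP-ATF core in the window, and a short stretch around each match is shown in the gene's direction, again with the motif in capitals. The ATF3 match (chr1:212565205-212565234, plus strand) began 191 bases before the start, the CEBPG match (chr19:33374060-33374089, plus strand) 42 bases before it, and the SLC1A5 match (chr19:46784893-46784922, minus strand) 97 bases before it. The SLC7A1 match (chr13:29595663-29595692, minus strand) lay 8 bases after the start. The SLC1A4 match (chr2:64989381-64989410, plus strand) lay 7 bases before the start and the SLC3A2 match (chr11:62881725-62881748, plus strand) 38 bases after it, both as the reverse complement of the core.
ATF3: aaaggtcaggaTGATGGAAggctgtcatat
CEBPG: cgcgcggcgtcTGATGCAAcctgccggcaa
SLC1A5: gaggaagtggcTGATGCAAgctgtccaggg
SLC1A4: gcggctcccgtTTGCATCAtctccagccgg
SLC3A2: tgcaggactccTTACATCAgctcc
SLC7A1: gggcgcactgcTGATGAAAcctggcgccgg

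Each array detected between 17369 and 19843 of 47231 probes, 36.8% to 42.0% of them. No pair of arrays held identical signals. Known readouts of ERK signalling were lower after the drug in both lines, which checks the treatment labels. DUSP6, a phosphatase induced by ERK, read 5.02, 5.42 and 5.71 at 6 h and 8.03, 8.06 and 8.22 at 0 h in SW1736, and 4.81, 4.78 and 5.21 at 6 h and 9.84, 9.59 and 9.93 at 0 h in SKMEL28. DUSP6 was 6.6-fold lower in SW1736 at 6 h and at least 22.2-fold lower in SKMEL28, where it was not well above background on the 3 arrays at 6 h. ETV5 changed by -2.83 in SW1736 and -1.93 in SKMEL28 at 6 h, and SPRY4 was at least 2.2-fold and at least 17.4-fold lower. At 48 h DUSP6 was -1.11 and -4.30 on the log2 scale against untreated cells, SPRY4 -0.22 (adjusted p = 0.606, not called) and -3.33, in SW1736 and SKMEL28 in that order. All 6 measured melanocyte markers were detected on all 12 SKMEL28 arrays. In SW1736 MITF was detected on 11 arrays and PMEL on 4, while MLANA, TYR, TYRP1 and SOX10 were detected on 0. Of 6 thyroid markers, PAX8 and FOXE1 were detected on all 12 SW1736 arrays, while TG, SLC5A5 and NKX2-1 were detected on 0 and TSHR on 1. Of 7 fibroblast genes, 2 (COL1A1 and COL1A2) were detected on all SW1736 arrays and 1 (LUM) on all SKMEL28 arrays. Of 5 leukocyte genes, 2 (CD14 and CD68) were detected on all SW1736 arrays and 1 (CD68) on all SKMEL28 arrays, and their part in the results was not tested.

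All levels are log2 signals after background correction and quantile normalization, compared only within a gene, and 1 unit is a fold of 2. Changes are given on the log2 scale with their standard error over 3 arrays a group, from limma's moderated test, and a change was called where the p-value adjusted over all 13699 genes was under 0.05. SW1736 arrays of a group differed more among themselves than SKMEL28 arrays did, with a median SD over genes of 0.233 against 0.146. Deviations of the third SW1736 arrays from their group means went together across times (r up to 0.180), and calls against untreated cells, or in a response difference at 6 h or 48 h, that were lost without them are marked beside the gene. In these bulk samples a lower share of cells of a kind and less RNA per cell cannot be told apart. The 1, 6 and 48 h comparisons of a line share its untreated arrays, so their values are set side by side without a test of overlap.

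In SW1736 cells the called members were all higher at 6 h and more often lower than higher at 48 h, while in SKMEL28 cells as many members were higher as were lower at both times. In SW1736 at 6 h, 10 of 36 members were called higher and 0 lower, against 1.41% and 2.17% of all genes. The median change of the members was 0.44, against 0.01 over all genes, and 31 of 36 were above 0. At 48 h in SW1736, 6 members were higher and 11 lower, against backgrounds of 13.3% and 11.8%, with a median of -0.13 against 0.02. Between 48 h and 6 h in SW1736, 0 members were higher and 19 lower, against 9.94% and 8.12%, with a median of -0.65 against 0.02. At 1 h in SW1736, 0 members were called higher and 0 lower by limma, against 0% and 0.0292% of all genes.

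In SKMEL28 cells at 6 h, 5 members were higher and 5 lower, against 5.93% and 7.46% of all genes. At 48 h in SKMEL28, 13 were higher and 13 lower, against 25.2% and 22.7%, a time at which 47.8% of all genes were called. Between 48 h and 6 h in SKMEL28, 10 were higher and 10 lower, against 24% and 19.4%. At 1 h 1 member, DDIT4, was lower and 0 were higher, against 0.204% and 0.0438%. With each array's median as the scale in place of quantiles, the SKMEL28 calls at 6 h split into 1 higher and 6 lower, with the median of all genes at -0.13, and the SW1736 calls at 48 h into 3 higher and 11 lower. The members lost by that scaling in SKMEL28 at 6 h were PSAT1 (0.49), CBS (0.20), SLC7A5 (0.50) and SLC38A2 (0.51). It also ended the response difference calls of ASNS (0.96), PCK2 (1.004) and PPP1R15A (0.87) at 6 h and of ALDH18A1 (0.61) at 48 h.

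**Figure D1:**
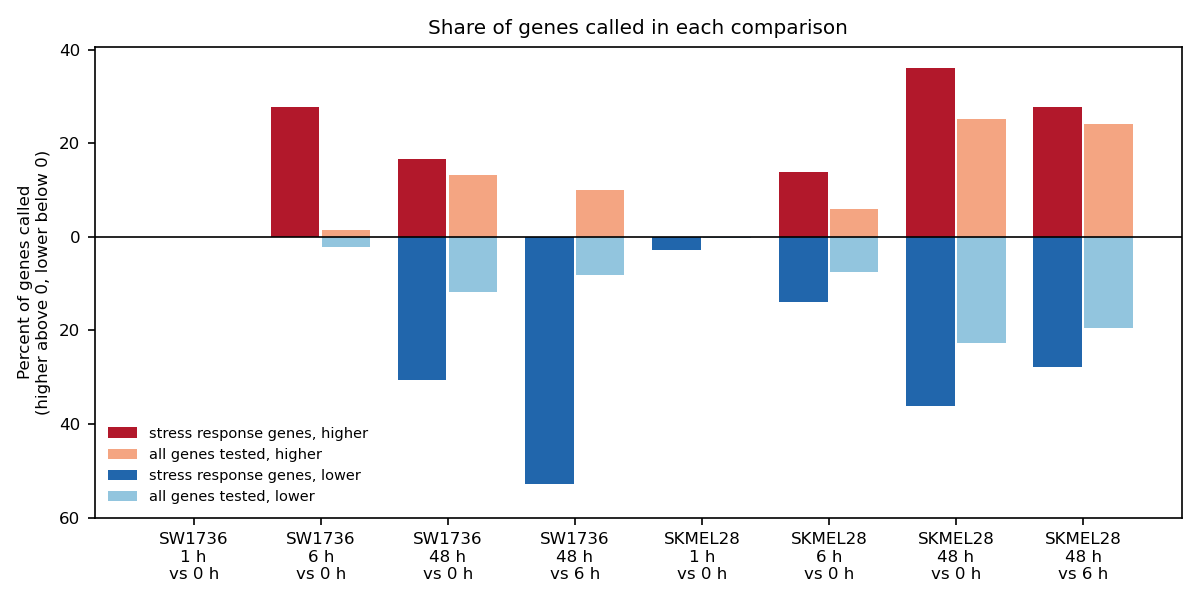
Percent of the 36 measured ATF4 set genes and of all 13699 genes called higher or lower in each comparison, with SW1736 left of SKMEL28. In SW1736 the members called at 6 h were all higher (10 of 36), and those called between 48 h and 6 h were all lower (19 of 36).

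**Figure D2:**
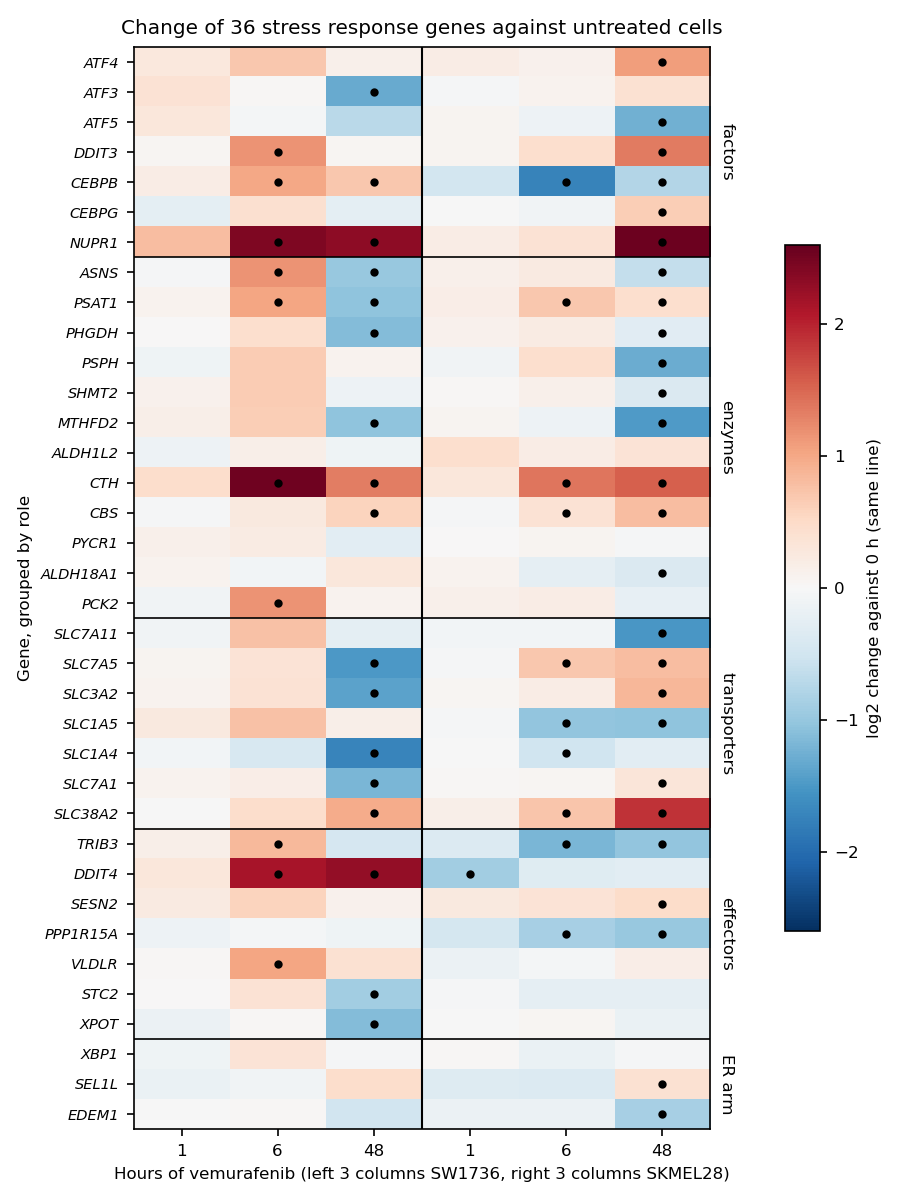
Log2 change against untreated cells for the 36 measured genes, in rows by role, with SW1736 in the 3 left columns and SKMEL28 in the 3 right columns, at 1, 6 and 48 h. Dots mark an adjusted p under 0.05, and NUPR1 and CTH are higher in both lines at 48 h.

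The difference in response between lines was tested directly, as the SW1736 change minus the SKMEL28 change. At 6 h, 10 members had a positive difference and 0 a negative one, against 2.18% and 1.99% of all genes, with a median of 0.41 against 0.01. At 48 h, 7 were positive and 13 negative, against 11.5% and 9.48%, with a median of -0.23. For the step between 6 h and 48 h, 1 was positive (PSPH, 1.17 ± 0.30, adjusted p = 0.00868) and 19 were negative, against 9.66% and 8.33%, with a median of -0.77. The PSPH call was lost without the third SW1736 arrays, at 1.08 (adjusted p = 0.0515). At 1 h 0 members had a called difference of either sign by limma, against 0.0219% and 0.0073% of all genes.

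**Figure D3:**
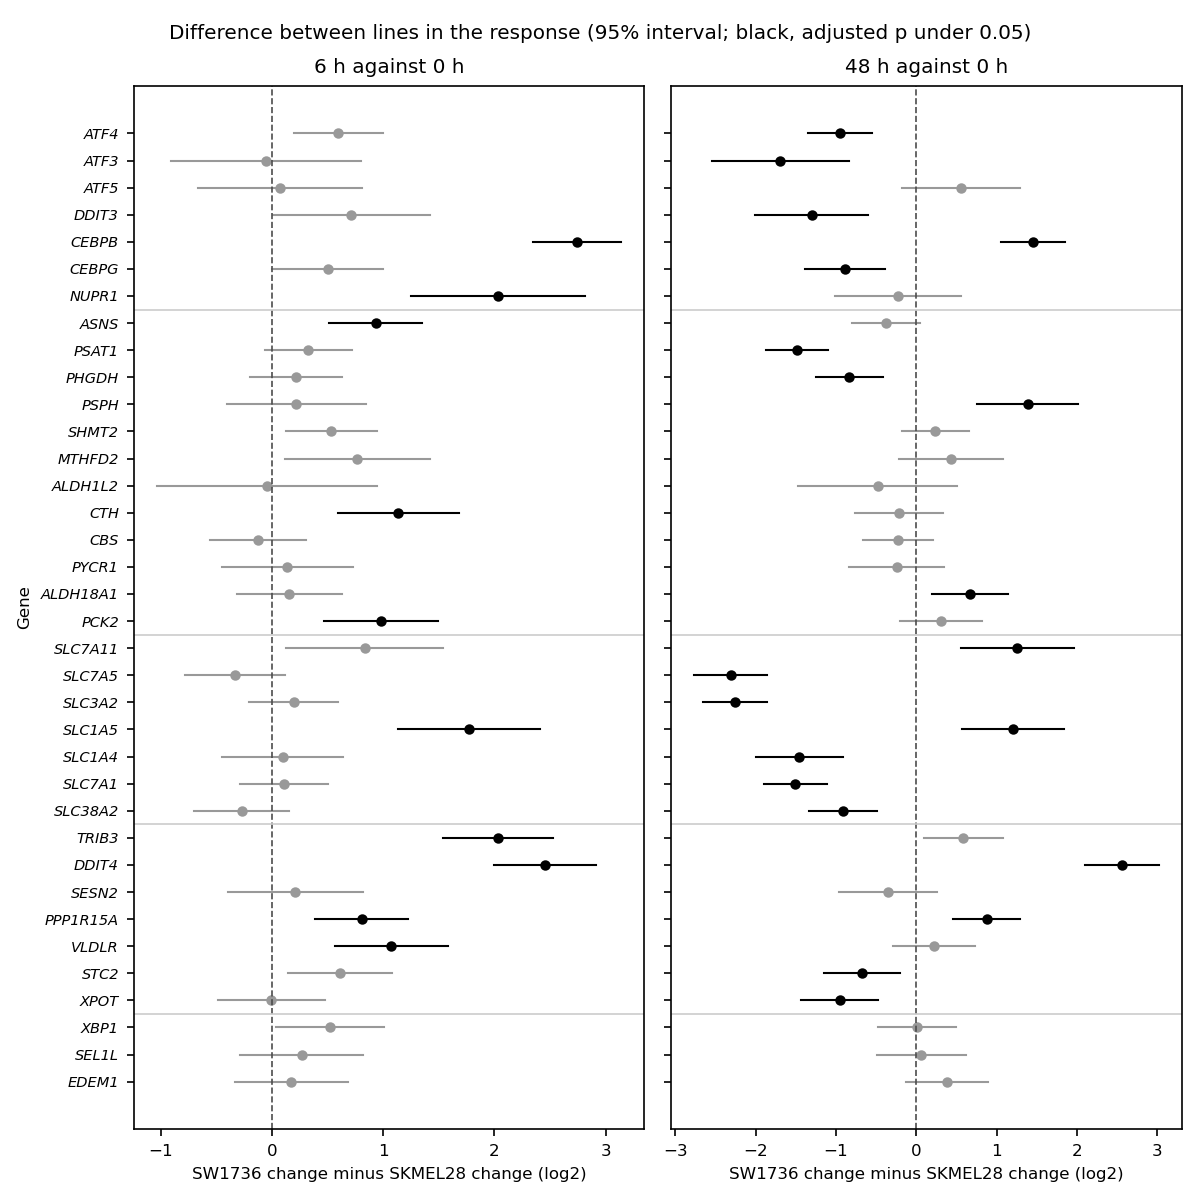
SW1736 change minus SKMEL28 change at 6 h and at 48 h for each measured gene, on the log2 scale with 95% intervals. DDIT4 lies at 2.45 and 2.56 at 6 h and 48 h, and SLC7A5 and SLC3A2 lie at -2.31 and -2.26 at 48 h.

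Among the 7 transcription factors, NUPR1, DDIT3 and CEBPB rose in SW1736 at 6 h and 0 fell, against 1.41% and 2.17% of all genes. In SKMEL28 at 48 h ATF4 itself, DDIT3, CEBPG and NUPR1 rose (57.1%), while CEBPB and ATF5 fell (28.6%). The shares of all genes there were 25.2% and 22.7%. On the brightest ATF4 probe, the mean in SW1736 was highest at 6 h. ATF4 read 12.52, 12.27 and 12.74 in untreated SW1736 cells, 12.81, 12.84 and 12.67 at 1 h, 13.22, 13.28 and 13.15 at 6 h and 12.83, 12.27 and 12.82 at 48 h. The 3 arrays at 6 h were above all untreated arrays, but the change of 0.71 ± 0.19 missed the threshold (adjusted p = 0.0615), and at 48 h it was 0.13. The 6 h change passed without background correction and with the authors' deposited values, settings that gave nearly the same value (0.70 each). It also passed with array weights, at 0.73 (adjusted p = 0.0488), and with 1 spread for both lines, at 0.71. In simulated data that shared spread gave 22.0% false calls in this comparison. The ATF4 signal in SKMEL28 was 12.18, 12.17 and 12.12 at 0 h, 12.33, 12.41 and 12.29 at 1 h, 12.28, 12.18 and 12.34 at 6 h and 13.32, 13.20 and 13.19 at 48 h. The 48 h arrays stood apart from all others, and ATF4 rose by 1.08 ± 0.08 (adjusted p = 6.93e-07), 2.11-fold. The change at 48 h was smaller in SW1736 than in SKMEL28, with a difference of -0.95 ± 0.19 (adjusted p = 0.000883). The 2 other ATF4 probes disagreed with each other. The first of them went the opposite way in SW1736, by -0.50 at 6 h and by 0.57 between 6 h and 48 h, and changed by 0.15 in SKMEL28 at 48 h. The second gave 1.002 and -0.58 in SW1736 and 1.82 in SKMEL28 in the same order, so the direction of ATF4 RNA in SW1736 at 6 h depends on the probe. At 48 h against 0 h the first changed by 0.07 and the second by 0.42 in SW1736. The gap between the lines at 48 h was therefore small on the first and large on the second, and it was tested on the brightest probe only.

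NUPR1, a small stress-induced chromatin protein, showed some of the largest changes of the set in both lines. NUPR1 read 6.27, 6.98 and 6.45 in untreated SW1736 cells, 6.98, 7.50 and 7.64 at 1 h, 9.65, 8.61 and 8.70 at 6 h and 8.79, 9.01 and 8.89 at 48 h. The NUPR1 signal in SKMEL28 was 6.08, 5.94 and 6.02 at 0 h, 6.34, 6.49 and 5.83 at 1 h, 6.33, 6.79 and 6.08 at 6 h and 8.47, 8.35 and 8.90 at 48 h. In SW1736 the 6 h and 48 h arrays were all above the untreated arrays, and in SKMEL28 the 48 h arrays were. NUPR1 rose by 2.42 ± 0.28 in SW1736 at 6 h (adjusted p = 0.000107), 5.35-fold, and by 2.33 ± 0.28 at 48 h. In SKMEL28 the change was 0.39 ± 0.21 at 6 h (adjusted p = 0.283) and 2.56 ± 0.21 at 48 h (adjusted p = 1.1e-06), or 1.60 without background correction. The lines therefore differed at 6 h, by 2.03 ± 0.38 (adjusted p = 0.00157), and at 48 h the difference was -0.23 ± 0.38 (adjusted p = 0.734, 95% interval -1.01 to 0.55).

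DDIT3 encodes CHOP, a factor that lies downstream of ATF4. DDIT3 read 7.49, 7.64 and 7.28 in untreated SW1736 cells, 7.21, 7.95 and 7.41 at 1 h, 8.75, 8.47 and 8.67 at 6 h and 7.09, 7.25 and 8.23 at 48 h. The DDIT3 signal in SKMEL28 was 7.18, 7.16 and 7.35 at 0 h, 6.93, 7.39 and 7.56 at 1 h, 7.77, 7.86 and 7.39 at 6 h and 8.59, 8.40 and 8.77 at 48 h. The SW1736 arrays at 6 h and the SKMEL28 arrays at 48 h lay above all untreated arrays of their line. The rise in SW1736 was 1.16 ± 0.27 at 6 h (adjusted p = 0.0282) and the value at 48 h 0.05, and the rise in SKMEL28 was 1.36 ± 0.17 at 48 h (adjusted p = 4.5e-05). The SW1736 call at 6 h was lost when any 1 of its 6 arrays was left out, with changes between 1.07 and 1.25, and without the third arrays together, at 1.05. At 48 h the SW1736 change minus the SKMEL28 change was -1.30 ± 0.34 (adjusted p = 0.0075).

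**Figure D4:**
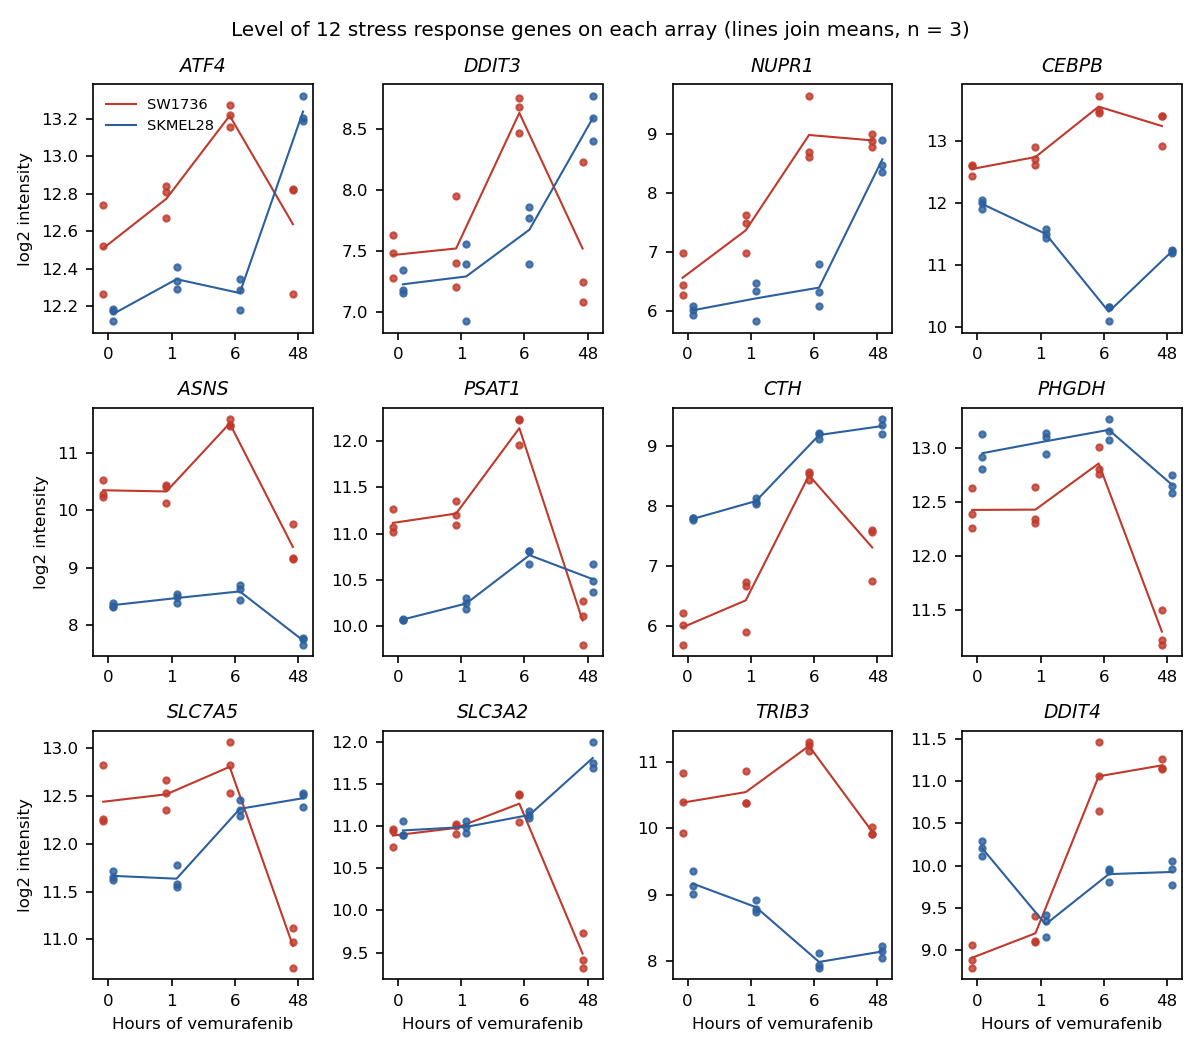
Log2 signal of 12 genes of the set at 0, 1, 6 and 48 h of vemurafenib, with a dot for each array and a line through the means of 3, SW1736 listed before SKMEL28. On the brightest probe of each gene, ATF4 and DDIT3 are highest at 6 h in SW1736 and at 48 h in SKMEL28, and CEBPB and DDIT4 move apart between the lines.

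CEBPB, a C/EBP factor that pairs with ATF4 and is also regulated by growth factor signalling, went in opposite directions. CEBPB read 12.59, 12.61 and 12.43 in untreated SW1736 cells, 12.90, 12.70 and 12.60 at 1 h, 13.48, 13.72 and 13.44 at 6 h and 13.40, 13.40 and 12.91 at 48 h. The CEBPB signal in SKMEL28 was 12.04, 11.90 and 11.99 at 0 h, 11.57, 11.49 and 11.43 at 1 h, 10.32, 10.31 and 10.09 at 6 h and 11.19, 11.22 and 11.23 at 48 h. No treated array at 6 h overlapped the untreated arrays in either line. CEBPB rose by 1.01 ± 0.19 in SW1736 (adjusted p = 0.00627) and fell by 1.74 ± 0.09 in SKMEL28 (adjusted p = 2.91e-07) at 6 h, a difference of 2.74 ± 0.19 (adjusted p = 5.24e-09). At 48 h the changes were 0.69 ± 0.19 and -0.76 ± 0.09, with a difference of 1.45 ± 0.19. In SW1736 the 48 h call was lost without the first 48 h array or the second, at 0.61 each, and the 6 h call without the third arrays, at 1.00.

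ATF5, a relative of ATF4, fell in SKMEL28 at 48 h. ATF5 read 9.26, 9.71 and 8.39 in untreated SW1736 cells, 9.52, 9.44 and 9.27 at 1 h, 9.001, 9.18 and 9.01 at 6 h and 9.03, 8.68 and 7.57 at 48 h. The ATF5 signal in SKMEL28 was 8.83, 8.66 and 8.60 at 0 h, 8.85, 8.66 and 8.81 at 1 h, 8.82, 8.44 and 8.43 at 6 h and 7.41, 7.46 and 7.46 at 48 h. All 3 SKMEL28 arrays at 48 h were below every earlier array, a change of -1.25 ± 0.12 (adjusted p = 3.1e-06), and in SW1736 the 48 h change was -0.70 ± 0.34 (adjusted p = 0.163). Without the third untreated SW1736 array, which read 8.39, that change was -1.06 and passed (adjusted p = 0.0351). The difference between the lines at 48 h was 0.56 and not called, but was 0.99 without the third SW1736 array at 48 h (adjusted p = 0.0295). ATF3, a stress-induced repressor, fell in SW1736 at 48 h and did not pass in SKMEL28. ATF3 read 6.49, 6.58 and 6.93 in untreated SW1736 cells, 6.99, 6.95 and 7.20 at 1 h, 6.93, 6.17 and 7.02 at 6 h and 5.24, 5.16 and 5.70 at 48 h. The ATF3 signal in SKMEL28 was 5.47, 5.84 and 5.89 at 0 h, 5.44, 6.18 and 5.46 at 1 h, 5.57, 6.31 and 5.58 at 6 h and 5.81, 5.99 and 6.56 at 48 h. The SW1736 change was -1.30 ± 0.24 (adjusted p = 0.000847), with the probe detected on 2 of 3 arrays at 48 h, and at 6 h it was 0.03. Without background correction the 48 h change was -0.56, still called. CEBPG, the partner with which ATF4 occupies many targets, rose in SKMEL28 at 48 h by 0.64 ± 0.14 (adjusted p = 0.00313; with median scaling 0.48, adjusted p = 0.051) and was -0.25 in SW1736, a difference of -0.89 ± 0.24 (adjusted p = 0.00987).

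Of 12 measured amino acid and one-carbon enzymes, 4 rose (33.3%) and 0 fell in SW1736 at 6 h, against 1.41% and 2.17% of all genes. At 48 h in SW1736 2 rose (16.7%) and 4 fell (33.3%), where 13.3% and 11.8% of all genes did. In SKMEL28 3 rose (25%) and 0 fell at 6 h, against 5.93% and 7.46% of all genes. At 48 h in SKMEL28 3 rose (25%) and 6 fell (50%), where 25.2% and 22.7% of all genes did. ASNS, which makes asparagine, showed both phases in SW1736. ASNS read 10.24, 10.53 and 10.30 in untreated SW1736 cells, 10.45, 10.13 and 10.42 at 1 h, 11.47, 11.60 and 11.50 at 6 h and 9.15, 9.16 and 9.76 at 48 h. The ASNS signal in SKMEL28 was 8.38, 8.32 and 8.32 at 0 h, 8.54, 8.37 and 8.48 at 1 h, 8.63, 8.69 and 8.43 at 6 h and 7.75, 7.77 and 7.65 at 48 h. The 6 h arrays of SW1736 were above all others of the line and its 48 h arrays below all others, and in SKMEL28 the 48 h arrays were the lowest. ASNS rose by 1.17 ± 0.20 in SW1736 at 6 h (adjusted p = 0.00302) and was -0.99 ± 0.20 against untreated cells at 48 h (adjusted p = 0.00165). The step between 6 h and 48 h was -2.17 ± 0.20 (adjusted p = 1.65e-06), 4.49-fold lower, the largest fall of the set in that comparison. In SKMEL28 the changes were 0.24 ± 0.09 at 6 h (adjusted p = 0.125) and -0.62 ± 0.09 at 48 h (adjusted p = 0.000168). The SKMEL28 6 h change passed with the mean of the ASNS probes, at 0.30 (adjusted p = 0.0342), and was 0.36 on the second probe. A second ASNS probe gave 1.59 at 6 h and -0.46 at 48 h in SW1736, but 0.20 at 48 h in SKMEL28, where it opposed the brightest probe, and the SKMEL28 call at 48 h was lost with the mean of the probes, at -0.21. The ASNS change at 6 h was 0.93 ± 0.20 higher in SW1736 than in SKMEL28 (adjusted p = 0.00662).

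PHGDH, PSAT1 and PSPH carry out the 3 steps of serine synthesis in that order. PSAT1 read 11.01, 11.26 and 11.07 in untreated SW1736 cells, 11.35, 11.10 and 11.20 at 1 h, 11.95, 12.22 and 12.24 at 6 h and 9.80, 10.11 and 10.27 at 48 h. The PSAT1 signal in SKMEL28 was 10.08, 10.07 and 10.07 at 0 h, 10.30, 10.25 and 10.19 at 1 h, 10.81, 10.81 and 10.68 at 6 h and 10.49, 10.67 and 10.37 at 48 h. In SW1736 the 6 h arrays lay above and the 48 h arrays below the untreated arrays, while both later times of SKMEL28 lay above them. PSAT1 rose by 1.02 ± 0.18 in SW1736 (adjusted p = 0.00443) and by 0.69 ± 0.09 in SKMEL28 (adjusted p = 0.000423) at 6 h. At 48 h it fell by 1.05 ± 0.18 in SW1736 and was up by 0.43 ± 0.09 in SKMEL28, a difference of -1.49 ± 0.19 (adjusted p = 3.4e-06). The SW1736 6 h call was lost without the third arrays, at 0.95, and with median scaling, at 0.83. Median scaling also ended the SKMEL28 call at 48 h, at 0.23 (adjusted p = 0.312).

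PHGDH read 12.63, 12.38 and 12.26 in untreated SW1736 cells, 12.64, 12.34 and 12.30 at 1 h, 12.80, 12.76 and 13.005 at 6 h and 11.22, 11.49 and 11.18 at 48 h. The PHGDH signal in SKMEL28 was 13.12, 12.92 and 12.81 at 0 h, 13.10, 13.14 and 12.95 at 1 h, 13.16, 13.07 and 13.27 at 6 h and 12.58, 12.74 and 12.65 at 48 h. At 48 h the arrays of each line were below all its untreated arrays, by a wider margin in SW1736. PHGDH fell by 1.13 ± 0.18 in SW1736 (adjusted p = 0.000315) and by 0.29 ± 0.11 in SKMEL28 (adjusted p = 0.0392), and the difference was -0.83 ± 0.20 (adjusted p = 0.00395). The small SKMEL28 change lost its call in 4 of 6 fits without 1 array, those without an untreated array (the first or the second) or a 48 h array (the first or the third), at -0.31 to -0.21. PSPH, which completes the route, fell in SKMEL28 at 48 h, with a tested difference between the lines. PSPH read 8.94, 9.60 and 9.29 in untreated SW1736 cells, 9.54, 9.18 and 8.79 at 1 h, 10.16, 9.96 and 9.70 at 6 h and 9.21, 9.59 and 9.30 at 48 h. The PSPH signal in SKMEL28 was 8.40, 8.61 and 8.28 at 0 h, 8.09, 8.21 and 8.72 at 1 h, 9.08, 8.68 and 8.86 at 6 h and 6.99, 7.13 and 7.28 at 48 h. The SKMEL28 arrays at 48 h stood below all others, a change of -1.30 ± 0.17 (adjusted p = 5.14e-05). In SW1736 the 48 h change was 0.09 ± 0.23 (adjusted p = 0.832), so that the difference was 1.38 ± 0.30 (adjusted p = 0.00174).

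CTH and CBS make cysteine from homocysteine by the transsulfuration route. On the brightest probe of each gene, CTH had the largest change of the set in SW1736 at 6 h. A second NUPR1 probe changed by 2.67 in that comparison. CTH read 5.68, 6.02 and 6.21 in untreated SW1736 cells, 5.89, 6.65 and 6.72 at 1 h, 8.42, 8.56 and 8.53 at 6 h and 7.60, 6.75 and 7.56 at 48 h. The CTH signal in SKMEL28 was 7.79, 7.79 and 7.76 at 0 h, 8.03, 8.06 and 8.13 at 1 h, 9.22, 9.20 and 9.12 at 6 h and 9.45, 9.35 and 9.19 at 48 h. All arrays at 6 h and 48 h were above the untreated arrays in both lines. CTH rose by 2.54 ± 0.26 in SW1736 (adjusted p = 3.91e-05), 5.81-fold, and by 1.40 ± 0.09 in SKMEL28 (adjusted p = 1.31e-06), 2.64-fold, at 6 h. At 48 h the changes were 1.33 ± 0.26 and 1.55 ± 0.09. The difference at 6 h was 1.14 ± 0.26 (adjusted p = 0.0108), and it lost its call without the first untreated SW1736 array, at 0.99. It was also lost without background correction and with the authors' deposited values, at 0.45 each (adjusted p = 0.135), and with the mean of the probes, at 0.75 (adjusted p = 0.0561). Without background correction the CTH changes in SW1736 were 1.56 at 6 h and 0.70 at 48 h, both still called. The 2 other CTH probes gave 1.02 and 1.93 at 6 h and -0.13 and 0.52 at 48 h in SW1736. CBS rose in SKMEL28 by 0.37 ± 0.10 at 6 h and 0.80 ± 0.10 at 48 h, and in SW1736 by 0.57 ± 0.19 at 48 h (adjusted p = 0.042). The CBS call in SKMEL28 at 6 h was lost without any 1 of 6 arrays (0.30 to 0.41), and that in SW1736 at 48 h without any array but the second at 48 h (0.39 to 0.61), or without the third arrays together (0.59). Median scaling ended both, at 0.20 and 0.31.

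MTHFD2 and SHMT2 feed the mitochondrial one-carbon pathway from serine. MTHFD2 read 10.05, 9.70 and 10.01 in untreated SW1736 cells, 10.37, 9.92 and 9.91 at 1 h, 10.47, 10.50 and 10.68 at 6 h and 8.04, 9.19 and 9.37 at 48 h. The MTHFD2 signal in SKMEL28 was 9.19, 9.20 and 9.22 at 0 h, 9.26, 9.33 and 9.25 at 1 h, 8.91, 9.01 and 9.30 at 6 h and 7.59, 8.04 and 7.55 at 48 h. The 48 h arrays were the lowest in both lines. MTHFD2 fell by 1.05 ± 0.28 in SW1736 (adjusted p = 0.0128) and by 1.48 ± 0.14 in SKMEL28 (adjusted p = 3e-06) at 48 h, with no called difference between the lines (0.43 ± 0.31, adjusted p = 0.382, 95% interval -0.22 to 1.08). Both values rest on the first SW1736 array at 48 h, which read 8.04. Without it the SW1736 change was -0.64 (adjusted p = 0.0467) and the difference 0.85, which passed (adjusted p = 0.0245). SHMT2 was 0.67 ± 0.19 at 6 h in SW1736 (adjusted p = 0.0687; 0.65 and called without background correction) and fell by 0.37 ± 0.10 in SKMEL28 at 48 h (adjusted p = 0.00751).

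PCK2, the mitochondrial enzyme that makes phosphoenolpyruvate, rose at 6 h in SW1736. PCK2 read 9.43, 9.37 and 9.91 in untreated SW1736 cells, 9.37, 9.58 and 9.50 at 1 h, 10.84, 10.33 and 11.06 at 6 h and 9.45, 9.55 and 10.01 at 48 h. The PCK2 signal in SKMEL28 was 8.53, 8.56 and 8.50 at 0 h, 8.49, 8.66 and 8.83 at 1 h, 8.73, 8.73 and 8.70 at 6 h and 8.52, 8.30 and 8.15 at 48 h. The 6 h arrays of SW1736 were above every other array of that line, a rise of 1.17 ± 0.23 (adjusted p = 0.00892), and PCK2 did not pass against untreated cells in SKMEL28 except at 48 h without the first 48 h array, at -0.30. The difference of 0.98 ± 0.25 (adjusted p = 0.0206) lost its call in 4 of 12 fits without 1 array, at 0.83 to 0.93. ALDH18A1, which starts proline synthesis, was the remaining enzyme with a called difference. ALDH18A1 read 10.32, 10.10 and 9.92 in untreated SW1736 cells, 10.14, 10.45 and 10.04 at 1 h, 10.13, 9.99 and 10.02 at 6 h and 10.18, 10.59 and 10.45 at 48 h. The ALDH18A1 signal in SKMEL28 was 9.01, 9.06 and 8.97 at 0 h, 9.07, 9.15 and 9.11 at 1 h, 8.71, 8.83 and 8.83 at 6 h and 8.34, 8.94 and 8.64 at 48 h. Its SKMEL28 arrays at 48 h were below the untreated arrays by a small margin, with changes at 48 h of 0.29 ± 0.19 (adjusted p = 0.288) in SW1736 and -0.37 ± 0.13 (adjusted p = 0.0316) in SKMEL28. The difference of 0.67 ± 0.23 was lost in 8 of 12 fits without 1 array, at 0.52 to 0.67, and without the third SW1736 arrays together, at 0.55, and the SKMEL28 call in 5 of 6, at -0.40 to -0.22. ALDH1L2 and PYCR1 passed in none of the 6 comparisons with untreated cells, and ALDH1L2 was detected on 1 of the 12 SW1736 arrays.

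None of the 7 amino acid transporters passed in SW1736 at 6 h by limma at the adjusted threshold (range -0.43 to 0.76). In SW1736 at 48 h 1 rose (14.3%) and 4 fell (57.1%), against 13.3% and 11.8% of all genes. In SKMEL28 2 rose and 2 fell at 6 h (28.6% each), against 5.93% and 7.46%. At 48 h 4 rose (57.1%) and 2 fell (28.6%) in SKMEL28, against 25.2% and 22.7%. At 48 h 5 transporters had a called negative response difference and SLC1A5 a positive one, against 9.48% and 11.5% of all genes. The call for SLC7A11 rests on levels mostly below detection. SLC7A5 imports large neutral amino acids such as leucine as the light chain of the LAT1 complex. SLC7A5 read 12.25, 12.82 and 12.23 in untreated SW1736 cells, 12.66, 12.35 and 12.53 at 1 h, 13.06, 12.53 and 12.82 at 6 h and 10.70, 11.12 and 10.97 at 48 h. The SLC7A5 signal in SKMEL28 was 11.71, 11.62 and 11.65 at 0 h, 11.58, 11.78 and 11.55 at 1 h, 12.45, 12.28 and 12.35 at 6 h and 12.39, 12.51 and 12.53 at 48 h. The 48 h arrays of SW1736 were below, and those of SKMEL28 above, all untreated arrays of their line. SLC7A5 fell by 1.50 ± 0.21 in SW1736 (adjusted p = 0.000101), 2.83-fold, and rose by 0.81 ± 0.09 in SKMEL28 (adjusted p = 1.81e-05), 1.75-fold. The difference of -2.31 ± 0.22 was the most negative of the set (adjusted p = 4.68e-08).

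SLC3A2, the heavy chain shared by SLC7A5 and SLC7A11, showed the same split. SLC3A2 read 10.94, 10.97 and 10.75 in untreated SW1736 cells, 10.91, 11.03 and 11.002 at 1 h, 11.05, 11.39 and 11.37 at 6 h and 9.42, 9.32 and 9.73 at 48 h. The SLC3A2 signal in SKMEL28 was 11.06, 10.89 and 10.90 at 0 h, 10.99, 11.07 and 10.92 at 1 h, 11.18, 11.13 and 11.09 at 6 h and 11.75, 11.997 and 11.69 at 48 h. In each line the 48 h arrays lay apart from all earlier arrays, below them in SW1736 and above them in SKMEL28. SLC3A2 fell by 1.40 ± 0.18 in SW1736 (adjusted p = 3.66e-05) and rose by 0.86 ± 0.10 in SKMEL28 (adjusted p = 2.16e-05), a difference of -2.26 ± 0.19 (adjusted p = 1.02e-08). Its second probe gave -1.18 and 0.94. SLC7A1, the carrier of arginine and lysine, followed in SW1736 and changed less in SKMEL28. SLC7A1 read 10.19, 10.33 and 10.04 in untreated SW1736 cells, 10.37, 10.35 and 10.11 at 1 h, 10.12, 10.58 and 10.36 at 6 h and 9.19, 8.86 and 8.96 at 48 h. The SLC7A1 signal in SKMEL28 was 9.48, 9.44 and 9.44 at 0 h, 9.50, 9.60 and 9.33 at 1 h, 9.60, 9.53 and 9.41 at 6 h and 9.80, 9.82 and 9.69 at 48 h. The changes at 48 h were -1.18 ± 0.18 in SW1736 (adjusted p = 0.000223) and 0.32 ± 0.09 in SKMEL28 (adjusted p = 0.0142), with a difference of -1.50 ± 0.19. The small SKMEL28 call was lost with median scaling, at 0.16 (adjusted p = 0.531), and with 1 spread for both lines (adjusted p = 0.0747).

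SLC38A2, which takes up small neutral amino acids including glutamine, rose in both lines at 48 h. SLC38A2 read 10.62, 10.54 and 10.82 in untreated SW1736 cells, 10.27, 11.07 and 10.61 at 1 h, 10.95, 11.13 and 11.24 at 6 h and 11.70, 11.47 and 11.70 at 48 h. The SLC38A2 signal in SKMEL28 was 8.47, 8.42 and 8.47 at 0 h, 8.66, 8.63 and 8.53 at 1 h, 9.13, 9.24 and 9.15 at 6 h and 10.26, 10.46 and 10.29 at 48 h. SLC38A2 was above all untreated arrays at 6 h and 48 h in SKMEL28. The changes at 48 h were 0.96 ± 0.20 in SW1736 (adjusted p = 0.00277) and 1.88 ± 0.09 in SKMEL28 (adjusted p = 7.87e-09), 3.69-fold, and the SW1736 change was the smaller, with a difference of -0.92 ± 0.20 (adjusted p = 0.00218). The SW1736 call was lost with median scaling, at 0.70.

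The neutral amino acid exchangers SLC1A5 (ASCT2) and SLC1A4 (ASCT1) moved differently. SLC1A5 read 9.78, 9.13 and 9.90 in untreated SW1736 cells, 9.72, 10.04 and 9.84 at 1 h, 10.10, 10.61 and 10.36 at 6 h and 9.45, 9.60 and 10.23 at 48 h. The SLC1A5 signal in SKMEL28 was 9.25, 9.53 and 9.64 at 0 h, 9.37, 9.55 and 9.39 at 1 h, 8.29, 8.87 and 8.20 at 6 h and 8.37, 8.43 and 8.49 at 48 h. In SKMEL28 the 6 h and 48 h arrays were below all untreated arrays, and SLC1A5 fell by 1.02 ± 0.16 at 6 h (adjusted p = 0.00145) and by 1.04 ± 0.16 at 48 h. In SW1736 it was 0.76 ± 0.25 at 6 h (adjusted p = 0.121; 0.69 and called without background correction), so that the lines differed by 1.77 ± 0.31 (adjusted p = 0.000817). SLC1A4 read 7.55, 7.15 and 7.31 in untreated SW1736 cells, 7.12, 7.39 and 7.28 at 1 h, 6.55, 7.04 and 7.15 at 6 h and 5.07, 5.71 and 6.07 at 48 h. The SLC1A4 signal in SKMEL28 was 9.69, 9.86 and 9.64 at 0 h, 9.76, 9.74 and 9.63 at 1 h, 9.20, 9.39 and 9.03 at 6 h and 9.40, 9.40 and 9.60 at 48 h. The 48 h arrays of SW1736 were far below the rest, with 2 of 3 still detected, and SLC1A4 fell there by 1.72 ± 0.24 (adjusted p = 0.000107), with -0.85, still called, without background correction. In SKMEL28 it fell by 0.52 ± 0.11 at 6 h (adjusted p = 0.00939) and was -0.27 at 48 h (adjusted p = 0.0741), which passed with median scaling, at -0.44, and under 4 other settings.

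SLC7A11, the cystine importer, was near the limit of detection. SLC7A11 read 4.92, 4.89 and 4.91 in untreated SW1736 cells, 4.50, 4.85 and 5.12 at 1 h, 5.62, 5.27 and 6.11 at 6 h and 4.94, 4.55 and 4.45 at 48 h. The SLC7A11 signal in SKMEL28 was 6.25, 6.31 and 6.34 at 0 h, 6.43, 6.27 and 6.005 at 1 h, 6.30, 5.69 and 6.69 at 6 h and 4.94, 4.75 and 4.65 at 48 h. In SW1736 it was not well above background on any array except 2 of the 3 at 6 h, and in SKMEL28 it was detected at all times but 48 h. It was at least 2.04-fold lower at 48 h than at 0 h in SKMEL28 (adjusted p = 7.05e-05) and at least 1.3-fold lower at 48 h than at 6 h in SW1736 (adjusted p = 0.0057). The SW1736 call was lost without the third arrays, at -0.70. The called response difference of 1.26 at 48 h rests on groups below detection in 3 of its 4 terms and is no measure of size. Without background correction and with the authors' deposited values it was 0.43 and not called (adjusted p = 0.0858).

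Of 7 measured stress effectors and brakes, DDIT4, TRIB3 and VLDLR rose in SW1736 at 6 h and 0 fell. Of all genes, 1.41% rose and 2.17% fell in that comparison. DDIT4 encodes REDD1, an inhibitor of the growth regulator mTORC1. DDIT4 read 8.88, 9.05 and 8.79 in untreated SW1736 cells, 9.40, 9.09 and 9.10 at 1 h, 11.06, 11.46 and 10.65 at 6 h and 11.15, 11.16 and 11.26 at 48 h. The DDIT4 signal in SKMEL28 was 10.29, 10.11 and 10.21 at 0 h, 9.35, 9.15 and 9.41 at 1 h, 9.80, 9.95 and 9.94 at 6 h and 10.05, 9.95 and 9.77 at 48 h. The 6 h and 48 h arrays of SW1736 were all above the 0 h arrays, while in SKMEL28 the 1 h arrays were the lowest. DDIT4 rose by 2.15 ± 0.20 at 6 h (adjusted p = 2.07e-05), 4.44-fold, and by 2.28 ± 0.20 at 48 h (adjusted p = 1.2e-06) in SW1736. In SKMEL28 it fell by 0.90 ± 0.11 at 1 h (adjusted p = 0.00245), and was -0.30 ± 0.11 at 6 h (adjusted p = 0.0887) and -0.28 ± 0.11 at 48 h (adjusted p = 0.0502), values that passed with median scaling, at -0.54 and -0.46. Differences were 2.45 ± 0.22 at 6 h (adjusted p = 2.2e-07) and 2.56 ± 0.22 at 48 h (adjusted p = 1.47e-08). At 1 h the difference was 1.19 ± 0.22 (adjusted p = 0.0606), and it passed under 5 of the alternative settings, at 1.06 to 1.19.

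TRIB3, a pseudokinase that restrains ATF4 and CHOP, went in opposite directions at 6 h. TRIB3 read 9.94, 10.83 and 10.39 in untreated SW1736 cells, 10.38, 10.39 and 10.86 at 1 h, 11.26, 11.17 and 11.30 at 6 h and 9.91, 10.02 and 9.92 at 48 h. The TRIB3 signal in SKMEL28 was 9.14, 9.36 and 9.01 at 0 h, 8.74, 8.92 and 8.78 at 1 h, 7.94, 7.90 and 8.13 at 6 h and 8.06, 8.23 and 8.16 at 48 h. In SW1736 the 6 h arrays were above and in SKMEL28 below all untreated arrays. The change was 0.85 ± 0.22 in SW1736 (adjusted p = 0.0438) and -1.18 ± 0.11 in SKMEL28 (adjusted p = 2.87e-05), a difference of 2.03 ± 0.24 (adjusted p = 7.13e-06). The SW1736 call was lost in 5 of 6 fits without 1 array, all but that without the second untreated array, at 0.63 to 0.89, and without the third arrays together, at 0.83, whereas the difference passed in all 12 such fits. Median scaling ended the SW1736 6 h call too, at 0.67 (adjusted p = 0.184), as did dropping the detection filter, at 0.85 (adjusted p = 0.0558). At 48 h TRIB3 was -0.44 ± 0.22 in SW1736 (adjusted p = 0.169) and fell by 1.02 ± 0.11 in SKMEL28. Without the first untreated SW1736 array the SW1736 change at 48 h was -0.66 and passed (adjusted p = 0.0427), and the uncalled difference of 0.58 passed without the second, at 0.81.

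PPP1R15A (GADD34), which brings a phosphatase to eIF2α and so ends the response, fell in SKMEL28, with a tested difference between the lines. PPP1R15A read 10.43, 10.54 and 10.13 in untreated SW1736 cells, 10.03, 10.27 and 10.37 at 1 h, 10.36, 10.37 and 10.22 at 6 h and 10.25, 10.58 and 9.92 at 48 h. The PPP1R15A signal in SKMEL28 was 11.35, 11.38 and 11.44 at 0 h, 10.96, 10.95 and 10.91 at 1 h, 10.51, 10.41 and 10.68 at 6 h and 10.35, 10.46 and 10.40 at 48 h. SKMEL28 arrays were lower at each later time than at 0 h without overlap, and the SW1736 groups overlapped. The change in SKMEL28 was -0.86 ± 0.09 at 6 h (adjusted p = 5.99e-05) and -0.99 ± 0.09 at 48 h (adjusted p = 2.52e-06), and the differences between lines were 0.81 ± 0.20 (adjusted p = 0.0192) and 0.87 ± 0.20 (adjusted p = 0.00275). The 6 h difference was lost in 3 of 12 fits without 1 array, at 0.69 to 0.79, and without the third SW1736 arrays together, at 0.74.

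VLDLR, a lipoprotein receptor, rose in SW1736 at 6 h. VLDLR read 7.13, 7.52 and 7.36 in untreated SW1736 cells, 7.17, 7.47 and 7.45 at 1 h, 8.29, 8.08 and 8.70 at 6 h and 7.63, 7.89 and 7.69 at 48 h. The VLDLR signal in SKMEL28 was 7.72, 7.84 and 8.04 at 0 h, 7.75, 7.83 and 7.57 at 1 h, 7.78, 7.57 and 8.08 at 6 h and 8.11, 7.92 and 8.11 at 48 h. The rise of 1.02 ± 0.20 (adjusted p = 0.00886) was lost without the third SW1736 arrays, at 0.86, and so was the difference between the lines of 1.07, at 0.92. The SKMEL28 groups overlapped. STC2, a secreted glycoprotein, was not well above background on any SKMEL28 array. STC2 read 8.79, 8.91 and 8.63 in untreated SW1736 cells, 9.01, 8.57 and 8.80 at 1 h, 9.38, 9.07 and 9.03 at 6 h and 7.80, 7.62 and 8.17 at 48 h. The STC2 signal in SKMEL28 was 5.20, 4.98 and 4.99 at 0 h, 5.08, 4.94 and 5.04 at 1 h, 4.68, 4.70 and 5.09 at 6 h and 4.77, 4.79 and 4.89 at 48 h. SW1736 arrays at 48 h were below all others of the line, a change of -0.91 ± 0.20 (adjusted p = 0.00309), and the response difference at 48 h has no measured SKMEL28 side. XPOT exports transfer RNA out of the nucleus. XPOT read 8.35, 8.45 and 8.21 in untreated SW1736 cells, 8.30, 8.14 and 8.11 at 1 h, 8.24, 8.53 and 8.35 at 6 h and 7.09, 7.39 and 7.15 at 48 h. The XPOT signal in SKMEL28 was 8.26, 8.01 and 8.28 at 0 h, 8.26, 7.97 and 8.32 at 1 h, 7.98, 8.34 and 8.36 at 6 h and 7.93, 7.88 and 8.23 at 48 h. In SW1736 XPOT was lower on all 48 h arrays, a change of -1.12 ± 0.17 (adjusted p = 0.000181), and in SKMEL28 the change was -0.17 ± 0.15 (adjusted p = 0.38), a difference of -0.95 ± 0.23 (adjusted p = 0.00469). SESN2, a leucine-sensing inhibitor of mTORC1, was at least 1.03-fold higher in SKMEL28 at 48 h (adjusted p = 0.0273), with 2 of 3 arrays detected at 48 h and 0 of 3 at 0 h. That call was lost in 4 of 6 fits without 1 array, at 0.36 to 0.45.

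Of the 3 measured ER arm genes, 1 rose and 1 fell in SKMEL28 at 48 h (33.3% each), against 25.2% and 22.7% of all genes. In SW1736 0 passed at 6 h or 48 h by limma, times at which 1.41% and 13.3% of all genes rose and 2.17% and 11.8% fell. XBP1, whose promoter is shown above, passed in none of the comparisons with untreated cells: its change was 0.35 ± 0.23 at 6 h and -0.03 ± 0.23 at 48 h in SW1736, and -0.17 ± 0.09 and -0.04 ± 0.09 in SKMEL28. EDEM1, which directs misfolded glycoproteins to degradation, fell by 0.87 ± 0.12 in SKMEL28 at 48 h (adjusted p = 8.19e-05) and was -0.49 ± 0.22 in SW1736 (adjusted p = 0.121). SEL1L, the scaffold of the same degradation machinery, rose by 0.40 ± 0.12 in SKMEL28 at 48 h (adjusted p = 0.0152), with 1 of 3 untreated arrays detected, and lost its call in 3 of 6 fits without 1 array, at 0.32 to 0.37, and without background correction, at 0.15. None of these genes passed in a response difference at 6 h or 48 h by limma at the adjusted threshold.

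The genes with the C/EBP-ATF core in the promoter window were mostly among those lower in SW1736 at 48 h. At 6 h in SW1736 1 of 7 such genes (ASNS) was called higher, and 8 of 23 measured genes whose windows lack these letters. Of all genes, 1.41% were higher in that comparison. At 48 h in SW1736 5 of the 7 were lower, against 6 of the 23 and 11.8% of all genes. Between 48 h and 6 h 6 of the 7 were lower, against 11 of the 23 and 8.12% of all genes. In SKMEL28 at 48 h the 7 genes split into 3 higher and 2 lower, and the 23 into 9 higher and 8 lower. The shares of all genes there were 25.2% and 22.7%. Among the 7, SLC3A2, SLC1A5, SLC1A4 and SLC7A1 are amino acid transporters. In SW1736 at 48 h 57.1% of the measured transporters were lower, so the motif and this role overlap. These counts are a description, and enhancers and introns, where known ATF4 sites of several members lie, were not searched.

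Untreated SW1736 and SKMEL28 cells already differed in the set. Of 36 members, 17 were higher and 8 lower in untreated SW1736, against 25.4% and 24.5% of all genes. STC2 was at least 11.6-fold higher in SW1736, CBS 10.7-fold, SLC38A2 4.62-fold and ASNS 4.03-fold. SLC1A4 was 5.25-fold lower in SW1736, CTH 3.5-fold, DDIT4 2.45-fold and PPP1R15A 2.04-fold, and SLC7A11 at least 1.95-fold. For CTH and DDIT4 the SW1736 level was thus the lower one before the drug, and at 6 h every DDIT4 value of SW1736 stood above those of SKMEL28. ATF4 itself was 0.35 ± 0.14 higher in SW1736 (adjusted p = 0.0363), a call lost in 5 of 6 fits without 1 array, at 0.23 to 0.36, and with the mean of its probes, at 0.03.

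The neighbouring genes of the pathway were counted from lists chosen for function. Of 13 eIF2α kinases, phosphatase partners and eIF2B subunits, EIF2B2 alone was called in SW1736 at 6 h (-0.84) and at 48 h (-0.70). In SKMEL28 0 were higher and 2 lower at 6 h. At 48 h 1 was higher (7.69%) and 4 lower (30.8%), led by EIF2B3 at -0.98. Of 18 measured further targets of ATF4 and CHOP, 1 was called in SW1736 at 6 h (TNFRSF10B, a death receptor, -0.79). At 48 h 2 were higher (11.1%) and 3 lower (16.7%), against 13.3% and 11.8% of all genes. The higher ones were KLHL24 (2.68) and CCPG1, an ER-phagy receptor (1.65). In SKMEL28 3 were higher and 2 lower at 6 h, and 7 higher (38.9%) and 6 lower (33.3%) at 48 h. GDF15, a secreted stress cytokine, fell there by 3.09 ± 0.14 at 6 h and by 3.52 ± 0.14 at 48 h, and it was not well above background in SW1736.

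Of 21 measured ER chaperone and ER export genes, 0 passed in SW1736 at 6 h by limma, and 2 were higher and 2 lower at 48 h (WFS1 1.07, SDF2L1 -0.79). In SKMEL28 1 was higher and 3 lower at 6 h. At 48 h 3 were higher (14.3%) and 12 lower (57.1%), among them the chaperones SDF2L1 (-1.20), HYOU1 (-0.87) and PDIA6 (-0.83). Of 11 measured targets of the oxidative stress factor NRF2, SW1736 cells had 1 higher at 6 h (SLC48A1), and 3 higher with 2 lower at 48 h, with HMOX1, a haem-degrading enzyme, at 1.98. In SKMEL28 0 were higher and 2 lower at 6 h (HMOX1 -1.55), and 2 were higher and 4 lower at 48 h. Of 18 genes of mTORC1 and amino acid sensing, 0 passed in SW1736 at 6 h. At 48 h 6 were higher (33.3%) and 0 lower, led by RRAGB (1.59) and SESN1 (1.40). In SKMEL28 4 were higher (22.2%) and 0 lower at 6 h. At 48 h 11 were higher (61.1%) and 0 lower there, led by FNIP2 (1.57). These lists were chosen with earlier results known, and their counts are to be read beside the shares of all genes given before them. In SKMEL28 at 48 h, 18.2% of the NRF2 targets were higher and 36.4% lower, against 25.2% and 22.7% of all genes.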

How the data were processed

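Total RNA of 24 samples had been measured on Illumina bead arrays. The deposited non-normalized table holds, for each of 47231 probes, a signal intensity and a detection p-value for every array. A second deposited table of the authors holds log2 values, and its columns each matched the raw signals of the same array best in 24 of 24 cases. Its column medians were 6.90 on every array, and it served as an alternative. The submitters' processing notes name Partek, and no version or build is given in the sources used here.

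Signals were background corrected by normexp estimated from the detection p-values (offset 16), quantile normalized and put on the log2 scale with limma 3.58.1 in R 4.3.3. Probes detected at p under 0.05 on at least 3 of 24 arrays were kept (26673 probes). Symbols came from the platform annotation, updated through Entrez identifiers: 30113 probes had 1 symbol, 30074 of them matched a current RefSeq gene, 8 had several symbols and 17110 none. The brightest kept probe stood for each of 13699 genes.

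Changes within a line were fitted on that line's 12 arrays alone (8 residual degrees of freedom). Response differences and the untreated comparison were fitted on all 24 arrays with 1 weight per line (1.55 for SKMEL28, 0.643 for SW1736). Tests were limma's, two-sided, with Benjamini-Hochberg adjustment over 13699 genes and a threshold of 0.05. Data of 13699 genes were simulated with each line's own spread for each gene and independent noise on each array. A spread shared by both lines was thus wrong by design there, and the joint deviations of the third SW1736 arrays were not simulated. On these data a fit with 1 spread for both lines gave 22.0% false calls in the SW1736 6 h comparison. The fit used here gave 6.14%, with 55.2% of 2-fold and 5.97% of 1.5-fold changes recovered. For the SKMEL28 6 h comparison the fit used here gave 7.10% false calls, with 89.6% of 2-fold changes recovered. For the difference at 6 h between 46.3% and 50.7% of 2-fold changes were recovered.

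A gene not detected on any array of a group has only a bound there, written as at least N-fold. The number of arrays limits the precision. Chip and scan batches are not given in the sources used here. The members, roles and other lists were chosen with earlier results of these data known. Values by array were given for 27 members, by a rule of size: a called log2 change of at least 1 against untreated cells, or a called response difference at 6 h or 48 h, taking at most 4 per role in each comparison by size, with ATF4, ATF3 and DDIT3 given in any case. CEBPG ranked after the 4 taken. Up to 3 genes with the largest called changes were named from each other list. Promoter sequences were RefSeq's (GRCh38.p14). Figures were drawn with matplotlib 3.10.9 in Python 3.11.15.

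Alternatives were raw signals left uncorrected for background, scaling by each array's median, the deposited log2 table, the detection filter dropped or made stricter, the mean of a gene's probes, 1 spread for both lines, array weights, the replicate number as a block, leaving out the third SW1736 arrays together, and leaving out each array in turn.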

Additional observations from a re-analysis of the deposited data

Results flagged for a closer look

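The change from untreated cells differed between the lines, by the test of the difference itself, for 10 genes at 6 h and for 20 at 48 h, of which SLC7A11 and STC2 had groups below detection. All values are the SW1736 change minus the SKMEL28 change on the log2 scale, with 3 arrays in each group.

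At 6 h the difference was 2.74 for CEBPB, 2.03 for NUPR1, 0.93 for ASNS, 1.14 for CTH and 0.98 for PCK2. It was 1.77 for SLC1A5, 2.03 for TRIB3, 2.45 for DDIT4, 0.81 for PPP1R15A and 1.07 for VLDLR.

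At 48 h the positive differences were 1.45 for CEBPB, 1.38 for PSPH, 0.67 for ALDH18A1, 1.20 for SLC1A5, 2.56 for DDIT4 and 0.87 for PPP1R15A. Transcription factors with negative differences were ATF4 (-0.95 on the brightest of its probes, which disagreed), ATF3 (-1.69), DDIT3 (-1.30) and CEBPG (-0.89). The enzymes PSAT1 and PHGDH differed by -1.49 and -0.83. Among transporters the values were -2.31 for SLC7A5, -2.26 for SLC3A2, -1.46 for SLC1A4, -1.50 for SLC7A1 and -0.92 for SLC38A2. STC2 differed by -0.68 and XPOT by -0.95, and STC2 was not detected in SKMEL28. The call for SLC7A11 (1.26) has no interpretable size, because 3 of its 4 groups were below detection, and it was lost without background correction, at 0.43 (adjusted p = 0.0858).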

How the results depend on the processing

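Of 178 member calls over the 13 comparisons, 174 passed without background correction and with the authors' values, 151 with median scaling, 173 without the detection filter, 175 with the mean of a gene's probes, 167 with 1 spread for both lines and 175 with array weights. All 175 calls that a stricter filter could test passed it, and none of these settings reversed a call. Member counts moved by over 1.5 times in a few cases. Without background correction and with the authors' values, 3 members were called in SKMEL28 at 1 h (DDIT4, CEBPB and PPP1R15A), against 1. In the response difference at 1 h 1 member, DDIT4, was called in place of 0 without background correction, with the authors' values, with the stricter filter, with the mean of probes and with array weights. Without the third SW1736 arrays, 5 of 10 members passed in SW1736 at 6 h. DDIT3, CEBPB, PSAT1, TRIB3 and VLDLR were lost, at 1.05, 1.00, 0.95, 0.83 and 0.86, and the cause was not tested beyond the smaller number of arrays. That comparison gave 15 with 1 spread for both lines, with ATF4, PSPH, SHMT2, SLC7A11 and SLC1A5 added. Median scaling split the SKMEL28 calls at 6 h into 1 higher and 6 lower, and the SW1736 calls at 48 h into 3 higher and 11 lower.

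Leaving out each array in turn gave 0 to 0 members in SW1736 at 1 h, 8 to 9 at 6 h, 15 to 17 at 48 h and 17 to 20 between 48 h and 6 h. In SKMEL28 the ranges were 1 to 1, 9 to 10, 22 to 25 and 18 to 20 in the same order. For the response differences they were 0 to 0 at 1 h, 8 to 11 at 6 h, 18 to 21 at 48 h and 18 to 21 for the later step, and 22 to 25 for untreated cells.

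Replicate numbers are shared by the groups, but same-numbered arrays did not deviate together throughout. In SW1736 their correlation was -0.00193 to 0.180 (over 0.1 in 4 of 18 pairs, all between the third arrays). The median there was 0.0684, against -0.0323 for arrays of different number, so same-numbered SW1736 arrays went together slightly. In SKMEL28 the correlation was -0.0228 to 0.0741, with a median of 0.0204 against -0.00864. The numbers were not taken to pair the samples in the main fit. With the replicate number as a block, the counts were 25 against 26 in SKMEL28 at 48 h, 21 against 20 for the difference between 48 h and 6 h, and 23 against 25 for untreated cells, and they were the same elsewhere.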
